A study of Mus musculus with 4 samples.

Results

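The 10 mouse genes described here encode the MHC class II presentation machinery: the class II chains H2-Aa, H2-Ab1 and H2-Eb1, the peptide exchange factor H2-DM (H2-DMa, H2-DMb1 and H2-DMb2), its inhibitor H2-O (H2-Oa and H2-Ob), the invariant chain Cd74 and the transactivator Ciita. They were chosen by name as the genes of this machinery, and each was found as 1 gene symbol among the 23995 in the deposited table. All 10 were among the 10240 symbols with an FPKM (fragments per kilobase of transcript for a fixed number of mapped fragments) that reached 1 in any library. RNA-seq had been performed on Ly6Chi and Ly6Clo monocytes isolated from the blood of adult control and RBP-J-deficient mice, with 1 library for each of the 4 groups. Control mice were Rbpj+/+ Lyz2 cre/cre (titled WT, with the genotype label Lyz2-Cre) and RBP-J-deficient mice were Rbpj fl/fl Lyz2 cre/cre (labelled RBP-Jfl/fl Lyz2-Cre). Both genotypes were homozygous for the Cre allele, which is a knock-in at Lyz2, a gene of the myeloid lineage. Deletion was therefore limited to cells that express or have expressed Lyz2, and no library came from mice without Cre. The labels name no treatment and no number of animals per library.

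A class II molecule is a pair of an α and a β chain that displays peptides from endocytosed proteins to CD4+ T cells. The invariant chain fills the groove of the new pair and guides it to endosomes, where cathepsins trim it to a short fragment. H2-DM removes that fragment and helps peptides bind, and H2-O restrains H2-DM, mainly in B cells. Transcription of nearly all these genes depends on CIITA, which binds no DNA itself and is recruited by the RFX, CREB and NF-Y proteins assembled on X and Y boxes in their promoters. Dendritic cells and B cells express the machinery strongly, and in blood monocytes it is more variable. RBP-J is the DNA-binding partner of Notch receptors.

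The promoters of 6 of the genes are shown because each holds a match to the Y box, a box through which CIITA acts. Genes that share such matches can also be compared in the libraries. RefSeq windows on GRCm38.p6, from 250 bases before to 50 after each start site, were matched for 7 of the 10 genes. H2-Ab1, Cd74 and Ciita were not matched. The stretches run 5′ to 3′ on the strand of the gene, and capitals mark exact matches to the Y box TGATTGG, to the X box AACNNNTGATG or, in H2-Aa, to the cyclic AMP response element TGACGTCA. The stretches lie at chr17:34287847-34287923 on the minus strand for H2-Aa and on the plus strand for the others, at chr17:34305756-34305832 for H2-Eb1, chr17:34153078-34153154 for H2-DMb1, chr17:34145107-34145183 for H2-DMb2, chr17:34238796-34238872 for H2-Ob and chr17:34092284-34092360 for H2-Oa.
H2-Aa: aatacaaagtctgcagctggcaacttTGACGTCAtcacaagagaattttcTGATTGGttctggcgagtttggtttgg
H2-Eb1: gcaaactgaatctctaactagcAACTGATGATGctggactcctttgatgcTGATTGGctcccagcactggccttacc
H2-DMb1: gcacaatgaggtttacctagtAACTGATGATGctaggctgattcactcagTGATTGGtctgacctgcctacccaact
H2-DMb2: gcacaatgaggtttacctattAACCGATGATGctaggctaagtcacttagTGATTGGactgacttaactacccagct
H2-Ob: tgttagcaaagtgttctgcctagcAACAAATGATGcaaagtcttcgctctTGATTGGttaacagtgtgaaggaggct
H2-Oa: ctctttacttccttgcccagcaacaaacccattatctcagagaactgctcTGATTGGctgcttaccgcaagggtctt

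Both strands were searched, with letters that were chosen with these promoters in view, so the counts are a description. The Y box was found in 6 of the 7 genes with a window and in 7.82% of the 32851 RefSeq windows. The X box was found in 4 of them, H2-Eb1, H2-DMb1, H2-DMb2 and H2-Ob, and in 0.615% of all windows. Both boxes stood on the same strand in 10 windows in all, of which 4 were those of these genes. Between 15 and 18 bases separated the boxes in these 4 genes, and an X box followed by a Y box at such a distance was present in 6 of the 32851 windows. The cyclic AMP response element was found in H2-Aa, 16 bases before its Y box, and in 1.79% of all windows. The RBP-J core motif GTGGGAA was found in H2-Ob alone, at positions -173 to -167 from the start site, on the other strand, and in 6.38% of all windows. H2-DMa, which had 2 windows, held none of the 4 motifs. The matches do not overlap each other. The RefSeq start of H2-DMb2 lies inside its GENCODE gene model. A match is a match of letters and not a measured binding site.

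**Figure D1:**
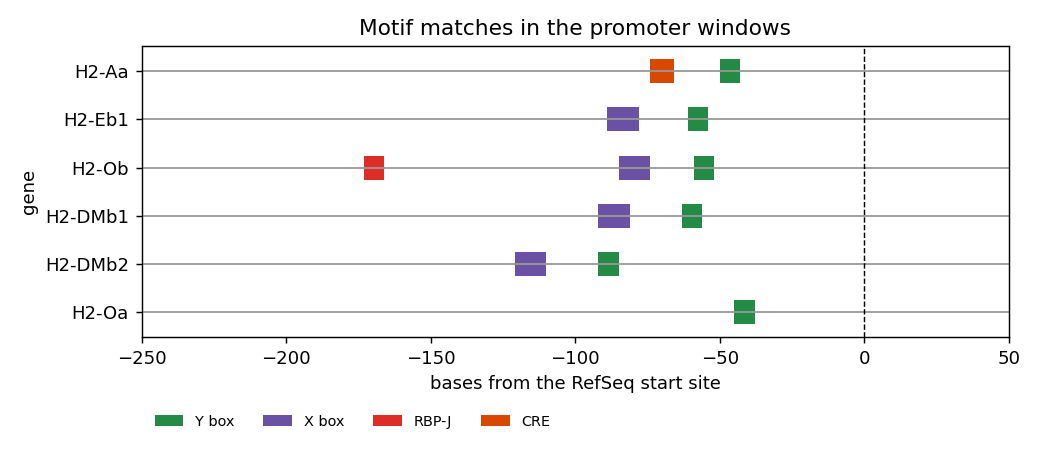
Positions of exact motif matches in the promoter windows of the 6 genes with a match, with the distance in bases from the RefSeq start site on the x axis (dashed line, start site) and 1 gene per line. The Y box begins between positions -92 and -45 in all 6, and the single RBP-J match lies farther upstream, in H2-Ob.

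As a check of the labels, Rbpj had 8.30 FPKM in control Ly6Clo monocytes and 2.43 in RBP-J-deficient ones, and 14.4 and 2.85 FPKM in Ly6Chi monocytes. Csf1r, the receptor for the growth factor CSF1 and a defining monocyte gene, had 406.7 and 157.8 FPKM in Ly6Clo and 306.7 and 213.0 in Ly6Chi monocytes, control first, and was thus lower after RBP-J loss in both subsets. Lyz2, whose alleles both carry the Cre knock-in in every library, had 52.0 and 133.9 FPKM in Ly6Clo and 84.8 and 101.7 in Ly6Chi monocytes. The 8 monocyte markers summed to between 1844 and 2659 FPKM, and the part of these shifts in the class II values was not tested. The FPKM of all genes summed to between 711555 and 885652 per library, highest in RBP-J-deficient Ly6Clo monocytes. Between 8985 and 9394 genes reached an FPKM of at least 1. Read depth is unknown. With 1 library per group there was no replicate check, and no p-value or error could be given for any difference below. Differences are log2 ratios of (FPKM + 1), which understate the change of genes with low values. In bulk libraries, fewer cells that express a gene and less RNA of that gene per cell cannot be told apart.

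To examine the class II machinery after RBP-J loss, the RBP-J-deficient library was compared with the control library in each subset. In Ly6Clo monocytes 8 of the 10 genes were lower after RBP-J loss, and 3 of them, H2-Aa, H2-Eb1 and H2-Oa, were at least 2-fold lower. Among all 10240 genes 48.2% were lower, 11.1% at least 2-fold lower and 8.97% at least 2-fold higher. No gene of the machinery was at least 2-fold higher. The median log2 ratio of the 10 genes was -0.91, beside 0.02 over all genes. In Ly6Chi monocytes 9 of the 10 genes were lower after RBP-J loss, where 49.3% of all genes were. The median log2 ratio of the 10 genes was -0.61 beside 0.0041 over all genes. None of the 10 was 2-fold lower or higher there, where 4.56% of all genes were at least 2-fold lower and 2.64% at least 2-fold higher. H2-Oa was the gene that was not lower in Ly6Chi monocytes, and H2-DMa and Cd74 were those not lower in Ly6Clo monocytes. When FPKM were rescaled to TPM (transcript shares, which make every library sum to the same total), the log2 ratios of Ly6Clo monocytes shifted by -0.30 and those of Ly6Chi monocytes by -0.10. H2-DMa and Cd74 were then lower in Ly6Clo monocytes too, and 7 of the 10 genes were at least 2-fold lower, where 17.7% of all genes were at least 2-fold lower and 5.24% higher on that scale. After subtracting the trend of the ratios with transcript GC content, 4 of the 10 genes were at least 2-fold lower in Ly6Clo monocytes, beside 9.79% of all genes.

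**Figure D2:**
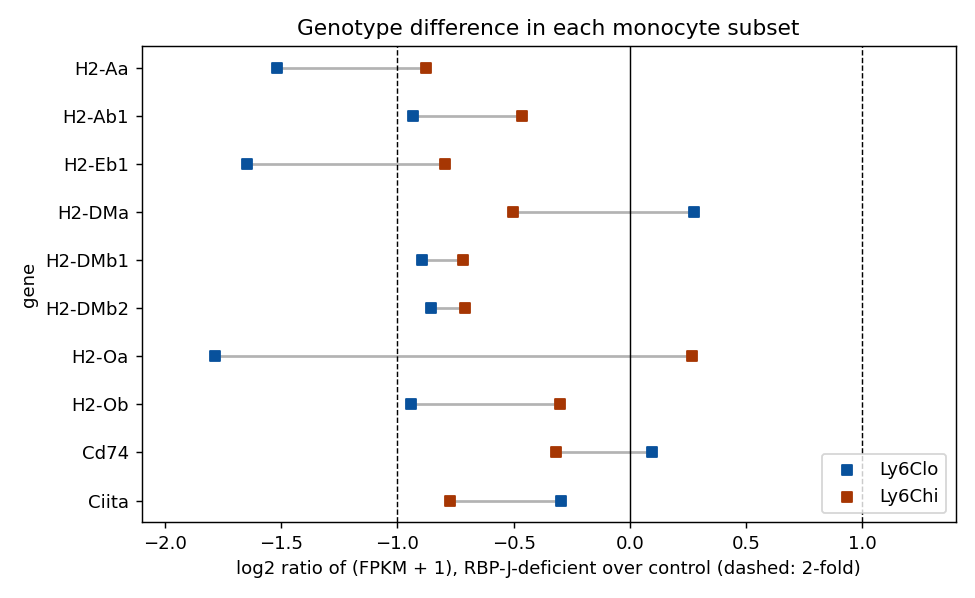
Difference between the genotypes, as the log2 of RBP-J-deficient (FPKM + 1) over that of control, on the x axis for each gene in Ly6Clo (blue) and Ly6Chi (brown) monocytes, from 1 library per group, with dashed lines at a 2-fold difference. H2-Aa, H2-Eb1 and H2-Oa lie past the lower line in Ly6Clo monocytes and no gene does in Ly6Chi monocytes, while H2-DMa, Cd74 and H2-Oa differ in sign between the subsets, the first pair only before rescaling to TPM.

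Of the genes with an FPKM over 100 in control monocytes of both subsets, H2-Aa and H2-Eb1 differed most. H2-Aa, the α chain of the I-A molecule (GRCm38, chr17:34282744-34287823, minus strand), had 260.3 FPKM in control Ly6Clo monocytes and 90.3 in RBP-J-deficient ones, and 764.9 and 416.4 FPKM in Ly6Chi monocytes. The RBP-J-deficient library was lower in both subsets, by 2.88-fold in Ly6Clo and 1.84-fold in Ly6Chi monocytes in FPKM, with log2 ratios of -1.52 and -0.88. H2-Ab1, the β chain of I-A (chr17:34257689-34269419, plus strand), had an FPKM of 979.8 and 512.6 in Ly6Clo monocytes and of 2172 and 1572 in Ly6Chi monocytes, control first. It was the most abundant of the chains in each library, and its log2 ratios of -0.93 and -0.47 stayed within 2-fold. After rescaling to TPM its log2 ratio in Ly6Clo monocytes was -1.24. After the GC trend was subtracted it was -0.52 in Ly6Clo and -0.26 in Ly6Chi monocytes. H2-Eb1, the β chain of the I-E molecule (chr17:34305867-34316674, plus strand), had 113.4 and 35.6 FPKM in Ly6Clo and 236.2 and 135.8 in Ly6Chi monocytes, in the same order. Its log2 ratios were -1.65 and -0.79, and in FPKM the Ly6Clo difference was 3.19-fold. H2-Ea-ps, the pseudogene that stands for its α chain partner in the reference strain, was listed at 0 in all 4 libraries.

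Ratios taken within a library do not depend on how the library was scaled. H2-Aa was 0.266 of H2-Ab1 in control Ly6Clo monocytes and 0.176 in RBP-J-deficient ones, and 0.352 and 0.265 in Ly6Chi monocytes. H2-Eb1 was 0.116 of H2-Ab1 in control Ly6Clo monocytes and 0.0694 in RBP-J-deficient ones, and 0.109 and 0.0864 in Ly6Chi monocytes. In both subsets the RBP-J-deficient library thus held less H2-Aa and less H2-Eb1 for its H2-Ab1.

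Cd74 encodes the invariant chain and lies on chromosome 18 (GRCm38, 60803848 to 60812652, plus strand). Its FPKM was 4740 in control Ly6Clo monocytes and 5062 in RBP-J-deficient ones, and 7467 and 5984 in Ly6Chi monocytes. It ranked between the 5th and the 19th most abundant gene in the 4 libraries and made up between 66.0% and 86.4% of the FPKM of the 10 genes. Its log2 ratio was 0.10 in Ly6Clo monocytes and -0.32 in Ly6Chi monocytes. The Ly6Clo ratio turned to -0.21 after rescaling to TPM and to -0.03 after centring on the median ratio, and was 0.47 after the GC trend was subtracted. Set against the sum of H2-Aa, H2-Ab1 and H2-Eb1 in the same library, Cd74 was 3.50 times the chains in control and 7.93 times in RBP-J-deficient Ly6Clo monocytes. In Ly6Chi monocytes it was 2.35 times the chains in the control library and 2.82 times in the other. The chains summed to 1354 and 638.5 FPKM in Ly6Clo and to 3173 and 2124 FPKM in Ly6Chi monocytes.

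H2-DM is a pair of H2-DMa with either of 2 β chains. The FPKM of H2-DMa (chr17:34119541-34139101, plus strand) was 90.9 in control Ly6Clo monocytes and 110.2 in RBP-J-deficient ones, and 366.7 and 258.5 in Ly6Chi monocytes. Its log2 ratio was 0.27 in Ly6Clo monocytes and -0.50 in Ly6Chi monocytes. The Ly6Clo ratio was -0.03 after rescaling to TPM and 0.55 after the GC trend was subtracted. H2-DMb1 (chr17:34153072-34160230, plus strand) had 77.9 and 41.4 FPKM in Ly6Clo and 274.0 and 166.3 in Ly6Chi monocytes. H2-DMb2 (chr17:34143307-34151555, plus strand) was the minor β chain, with 14.8 and 7.76 FPKM in Ly6Clo and 26.2 and 15.7 in Ly6Chi monocytes. The log2 ratios of the β chain genes were close to each other, at -0.90 and -0.86 in Ly6Clo and -0.72 and -0.71 in Ly6Chi monocytes. Their transcripts were 94.6% identical over 1219 aligned bases and shared 361 stretches of 50 bases, so the split of reads between them is uncertain. Summed, they had log2 ratios of -0.90 and -0.72. H2-DMa was 0.98 of the summed β chains in control Ly6Clo monocytes and 2.24 in RBP-J-deficient ones, against 1.22 and 1.42 in Ly6Chi monocytes. The gene model of H2-DMa overlaps 4 others, among them Brd2 on the opposite strand, whose FPKM was 12.1 or more in every library.

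**Figure D3:**
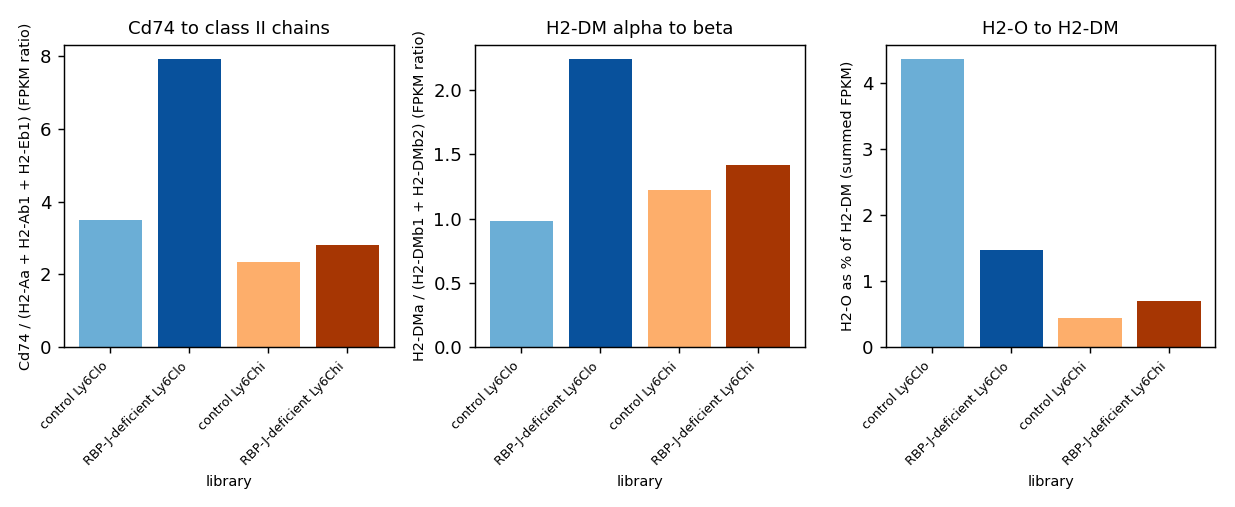
Ratios of FPKM within each of the 4 libraries, 1 bar per library: Cd74 over the summed class II chains, H2-DMa over the summed H2-DM β chains, and H2-O as a percentage of H2-DM. RBP-J-deficient Ly6Clo monocytes have the highest bar in the first pair of panels, at 7.93 and 2.24, and control Ly6Clo monocytes in the last, at 4.36%.

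H2-O was the only part of the machinery with more transcript in Ly6Clo than in Ly6Chi control monocytes. H2-Oa, its α chain (chr17:34092340-34095234, plus strand), had 2.78 FPKM in control Ly6Clo monocytes and 0.10 in RBP-J-deficient ones, and 1.59 and 2.12 FPKM in Ly6Chi monocytes. The RBP-J-deficient Ly6Clo library stood below the other 3, and the log2 ratio was -1.78 in Ly6Clo and 0.27 in Ly6Chi monocytes. At these levels the size depends on the added constant: the Ly6Clo ratio was -3.87 with 0.1 added and -0.61 with 5 added. H2-Ob, its β chain (chr17:34238903-34254414, plus strand), had 5.23 and 2.25 FPKM in Ly6Clo and 1.37 and 0.93 in Ly6Chi monocytes, with log2 ratios of -0.94 and -0.30. H2-Oa and H2-Ob together came to 4.36% of H2-DM in control and 1.47% in RBP-J-deficient Ly6Clo monocytes, and to 0.444% and 0.691% in Ly6Chi monocytes.

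Because B cells express H2-O, 18 B cell markers were read beside it, of which 15 were found and 8 reached an FPKM of 1. In Ly6Clo monocytes 5 of the 8 were at least 2-fold lower in the RBP-J-deficient library and 1 was higher. Among all genes 11.1% were lower and 8.97% higher to that extent. Cd79a, a chain of the B cell receptor, had 9.02 FPKM in control Ly6Clo monocytes and 1.13 in RBP-J-deficient ones, and 0.70 and 1.42 FPKM in Ly6Chi monocytes. Ms4a1, which encodes CD20, had 3.27 and 0.06 FPKM in Ly6Clo and 0.43 and 0.94 in Ly6Chi monocytes. Cd22, a B cell lectin, was at 12.9 and 0.56 FPKM in Ly6Clo and 1.12 and 0.50 in Ly6Chi monocytes. Pax5, a transcription factor that defines B cells, was listed at 0 in 3 libraries and at 0.06 FPKM in the other. The whole list summed to 180.0 and 193.1 FPKM in Ly6Clo and 84.6 and 107.3 in Ly6Chi monocytes. Most of that sum was Cd79b and Cd37 in each library, so it says little about the other markers. The marker that was at least 2-fold higher was Cd79b, the other signalling chain of the B cell receptor, with 41.9 and 100.2 FPKM in Ly6Clo and 23.7 and 43.7 in Ly6Chi monocytes. Cd37, a tetraspanin gene that other leukocytes also express, had 101.0 and 86.9 FPKM in Ly6Clo and 54.9 and 53.8 in Ly6Chi monocytes. The markers thus did not share one pattern: Cd79a and Ms4a1 had the order of genotypes of H2-Oa in each subset, and the most abundant pair, Cd79b and Cd37, did not. The part of B cells in the H2-O values was not tested.

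Ciita (chr16:10480059-10528418, plus strand) was low in every library. Its FPKM was 0.38 in control Ly6Clo monocytes and 0.13 in RBP-J-deficient ones, and 4.88 and 2.44 in Ly6Chi monocytes. In both subsets the RBP-J-deficient library was the lower one, with log2 ratios of -0.29 and -0.77. With 0.1 in place of 1 added, the Ly6Clo ratio was -1.09. Ciita has several promoters, which these gene values do not separate, and its gene model overlaps Dexi on the opposite strand.

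**Figure D4:**
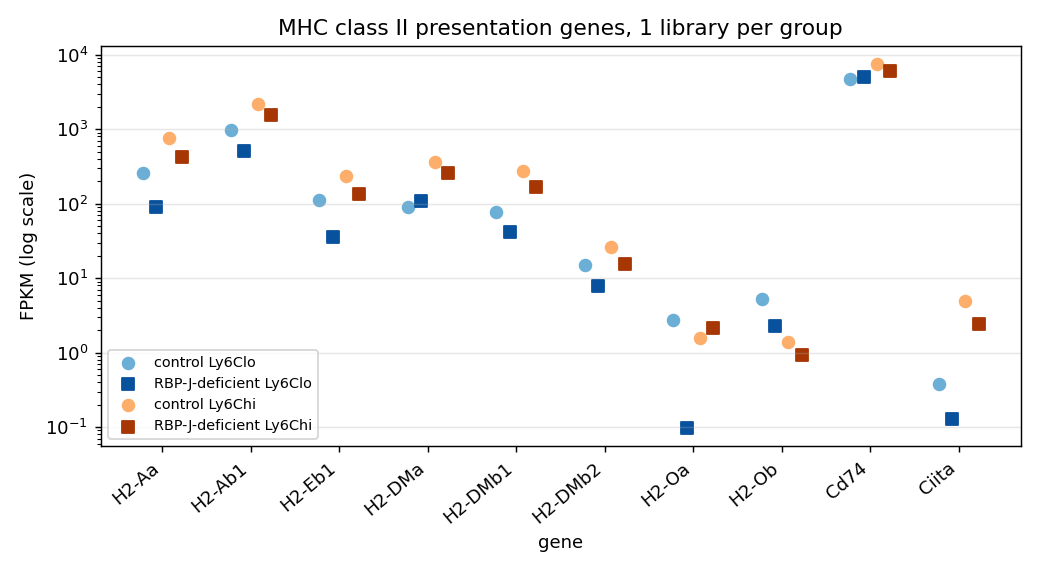
FPKM on a log axis for each of the 10 genes in control Ly6Clo (light blue circles), RBP-J-deficient Ly6Clo (dark blue squares), control Ly6Chi (light orange circles) and RBP-J-deficient Ly6Chi (brown squares) monocytes, 1 library each. Levels run from 0.10 for H2-Oa to 7467 for Cd74, and the light orange circle is the highest of the 4 points for every gene except H2-Oa and H2-Ob.

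The subsets were next compared within each genotype, using the same 4 libraries. In control mice 8 of the 10 genes were lower in Ly6Clo than in Ly6Chi monocytes, where 49.8% of all genes were. Of these 8, 6 (H2-Aa, H2-Ab1, H2-Eb1, H2-DMa, H2-DMb1 and Ciita) were at least 2-fold lower, where 7.75% of all genes were. H2-Ob was the one gene at least 2-fold higher, against 5.21% of all genes. The median log2 ratio of the 10 genes, Ly6Clo over Ly6Chi, was -1.10, beside 0 over all genes. In RBP-J-deficient mice 9 genes were lower in Ly6Clo monocytes, where 48.8% of all genes were. At least 2-fold lower were 7 (the same 6 and H2-Oa), where 10.6% of all genes were. None was at least 2-fold higher, against 8.41% of all genes, and the median was -1.56. Ciita had the lowest log2 ratio in control mice, at -2.09, and H2-Aa in RBP-J-deficient mice, at -2.19. H2-DMa had -2.0 in control mice and -1.22 in RBP-J-deficient ones, and Cd74 had -0.66 and -0.24. H2-Oa had 0.54 in control mice and -1.51 in RBP-J-deficient ones.

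Read over the 4 libraries together, 6 of the 10 genes had the same order. H2-Aa, H2-Ab1, H2-Eb1, H2-DMb1, H2-DMb2 and Ciita were lowest in RBP-J-deficient Ly6Clo monocytes, followed by control Ly6Clo, RBP-J-deficient Ly6Chi and control Ly6Chi monocytes. Of all 10240 genes, 8.35% had that order. H2-DMa and Cd74 had it except that both Ly6Clo libraries changed places, and H2-Oa and H2-Ob each had an order of their own. The 4 genes with both an X and a Y box as printed above, H2-Eb1, H2-DMb1, H2-DMb2 and H2-Ob, had Ly6Clo log2 ratios from -1.65 to -0.86 between the genotypes. H2-Aa, H2-Oa and H2-DMa, with a window but no match to the X box, had -1.52, -1.78 and 0.27. Of the 4 genes with both boxes, H2-Ob did not share the order of the other 3. Neighbours in these orders cannot be set against a spread between replicates. The 10 genes together held 0.876% of all FPKM in control and 0.662% in RBP-J-deficient Ly6Clo monocytes, and 1.59% and 1.12% in Ly6Chi monocytes.

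The genes whose profile lay nearest to the mean of H2-Aa, H2-Ab1, H2-Eb1 and Cd74 over the 4 libraries were Hexa, Hk1, Daxx, Esam, Grn, Vps37b, Stat2, 2610507I01Rik, Pgls and Socs6. Likeness was the Euclidean distance between log2(FPKM + 1) values, each gene set around its own mean, and ran from 0.040 for Hexa to 0.177 for Socs6. Hexa, which encodes a subunit of the lysosomal enzyme β-hexosaminidase, had 140.7 FPKM in control Ly6Clo monocytes and 71.5 in RBP-J-deficient ones, and 302.9 and 194.7 FPKM in Ly6Chi monocytes. Daxx, which encodes a nuclear histone chaperone, had 21.8 and 10.8 FPKM in Ly6Clo and 47.2 and 29.3 in Ly6Chi monocytes. Grn, which encodes progranulin, had 92.2 and 52.9 FPKM in Ly6Clo and 214.7 and 143.7 in Ly6Chi monocytes. Esam was listed at 0 in RBP-J-deficient Ly6Clo monocytes. With 4 libraries, a small distance says only that the order and spacing of the levels were alike.

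The factors that act on class II promoters were read from a separate list. As a background for the counts here, 11.1% of all genes were at least 2-fold lower and 8.97% higher after RBP-J loss in Ly6Clo monocytes. In Ly6Chi monocytes the shares were 4.56% and 2.64%. None of the 7 subunits of RFX and NF-Y and Creb1 was 2-fold lower or higher between the genotypes in either subset, with median log2 ratios of 0.01 in Ly6Clo and -0.01 in Ly6Chi monocytes. Rfx5, the subunit that contacts the X box, had 1.94 and 1.20 FPKM in Ly6Clo and 0.99 and 1.16 in Ly6Chi monocytes. Nfyb, an NF-Y subunit, had 19.8 and 27.5 FPKM in Ly6Clo and 12.7 and 12.6 in Ly6Chi monocytes. Of 12 genes for regulators of Ciita transcription, 3 were at least 2-fold lower in RBP-J-deficient Ly6Clo monocytes and none higher, and 2 were lower in Ly6Chi monocytes. Spi1, which encodes the myeloid factor PU.1, had 902.7 FPKM in control Ly6Clo monocytes and 211.1 in RBP-J-deficient ones, and 851.0 and 441.6 FPKM in Ly6Chi monocytes. Its log2 ratios were -2.09 and -0.94. Usf1 had 46.8 and 20.8 FPKM in Ly6Clo monocytes. Socs1, an inhibitor of cytokine signalling, had log2 ratios of -1.85 and -1.57, and Prdm1, a repressor of Ciita, had -0.91 and -1.20. The interferon-γ receptor genes Ifngr1 and Ifngr2 stayed within 2-fold in both subsets.

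Of the 10 genes of the endosomal step, 2 were at least 2-fold lower and 1 higher in RBP-J-deficient Ly6Clo monocytes, and none in Ly6Chi monocytes. Among all genes 11.1% were lower and 8.97% higher to that extent in Ly6Clo, and 4.56% and 2.64% in Ly6Chi monocytes. Ctss, which encodes the cathepsin that makes the last cut in the invariant chain, had 4864 FPKM in control Ly6Clo monocytes and 7795 in RBP-J-deficient ones, and 5724 and 6189 FPKM in Ly6Chi monocytes. Its inhibitor Cst3 was higher in the RBP-J-deficient library of both subsets, with log2 ratios of 0.82 and 0.74. Ctsc had a log2 ratio of 1.47 in Ly6Clo monocytes, while Ctsb had -1.57 and Ctsd -1.25. Ifi30, the thiol reductase of the same compartment, resembled the class II chains between the subsets, with 113.3 and 99.4 FPKM in Ly6Clo and 533.3 and 392.6 in Ly6Chi monocytes.

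None of 5 genes for class II turnover, of which March1 and March8 were taken from symbols that the table lists as dates, was 2-fold lower or higher in Ly6Clo monocytes between the genotypes. There 11.1% of all genes were at least 2-fold lower and 8.97% higher, and in Ly6Chi monocytes 4.56% and 2.64%. Cd83, whose product keeps class II on the surface, had 336.7 and 348.1 FPKM in Ly6Clo but 13.5 and 43.4 in Ly6Chi monocytes, a log2 ratio of 1.61 in the latter. Of 10 costimulatory ligands, 9 reached an FPKM of 1, and Cd40 was the one at least 2-fold higher in RBP-J-deficient Ly6Clo monocytes, with a log2 ratio of 1.14. Cd274 and Pdcd1lg2, the ligands of PD-1, were at least 2-fold higher in RBP-J-deficient Ly6Chi monocytes, with 1.76 and 1.07. No costimulatory gene was 2-fold lower in either subset.

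The 12 genes of class I presentation had median log2 ratios of -0.14 between the genotypes in Ly6Clo and -0.07 in Ly6Chi monocytes. Between the subsets their medians were 0.18 in control mice and 0.14 in RBP-J-deficient ones, where the class II genes had -1.10 and -1.56. Of the 12, 2 were at least 2-fold lower in RBP-J-deficient Ly6Clo monocytes, where 11.1% of all genes were. They were Tap1, with a log2 ratio of -1.06, and Tap2, with -1.70. These genes of the peptide transporter lie in the class II region. Their neighbour Psmb8 had 0.53 and Psmb9 had -0.32, so low values did not extend to every gene of the region. Nlrc5, the counterpart of Ciita for class I genes, had a log2 ratio of 1.11, with 6.30 FPKM in control and 14.8 in RBP-J-deficient Ly6Clo monocytes. No test of the difference between the class I and class II lists was made.

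Markers of other cells were read as well, and those of conventional dendritic cells were mostly lower in Ly6Clo than in Ly6Chi monocytes. Of 12 markers of conventional dendritic cells, 7 reached an FPKM of 1 and summed levels over the 12 were 77.2 and 65.2 FPKM in Ly6Clo and 343.5 and 255.9 in Ly6Chi monocytes, control first. Of the 7, 6 were lower in Ly6Clo than in Ly6Chi monocytes of control mice and 7 in those of RBP-J-deficient mice. Among all genes 49.8% and 48.8% were. Flt3, the receptor that maintains dendritic cells, had 1.15 and 0.28 FPKM in Ly6Clo and 12.6 and 5.32 in Ly6Chi monocytes, the same order of libraries as H2-Aa. Batf3, a transcription factor gene, did not have that order, with 10.1 and 20.4 FPKM in Ly6Clo and 85.7 and 55.4 in Ly6Chi monocytes. Nor did the lectin gene Clec10a, with 6.82 and 7.52 FPKM in Ly6Clo and 39.9 and 36.5 in Ly6Chi monocytes. Cd209a, a lectin gene also found in monocytes, had it, with 41.8 and 30.6 FPKM in Ly6Clo and 182.5 and 139.4 in Ly6Chi monocytes. Dpp4 had that order as well, with 10.85 and 4.12 FPKM in Ly6Clo and 16.4 and 14.2 in Ly6Chi monocytes. Ccr7 and Wdfy4 did not. Among all genes 8.35% had that order. Zbtb46, Xcr1 and Clec9a, also on the list, stayed under 1 FPKM in all 4 libraries. Clec9a had that order too, with 0.12 and 0.02 FPKM in Ly6Clo and 0.91 and 0.75 in Ly6Chi monocytes. Zbtb46 had 0.88 and 0.35 FPKM in Ly6Clo and 0.46 and 0.06 in Ly6Chi monocytes. Xcr1 had 0.33 and 0.08 FPKM in Ly6Clo and 0.26 and 0.24 in Ly6Chi monocytes. Plasmacytoid dendritic cell markers summed to between 239.9 and 468.1 FPKM, with Siglech at most 0.14, and T and NK cell markers to at most 10.7. Neutrophil markers summed to 269.6 and 176.6 in Ly6Clo and to 1572 and 1226 in Ly6Chi monocytes, and platelet markers to between 123.5 and 352.3. Most of each neutrophil sum was S100a8 and S100a9, which had 1085 and 201.7 FPKM in control Ly6Chi monocytes. In that library Mmp8 had 194.8 FPKM, while Camp and Ngp were listed at 0. The part of these cells in the class II values was not tested.

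**Figure D5:**
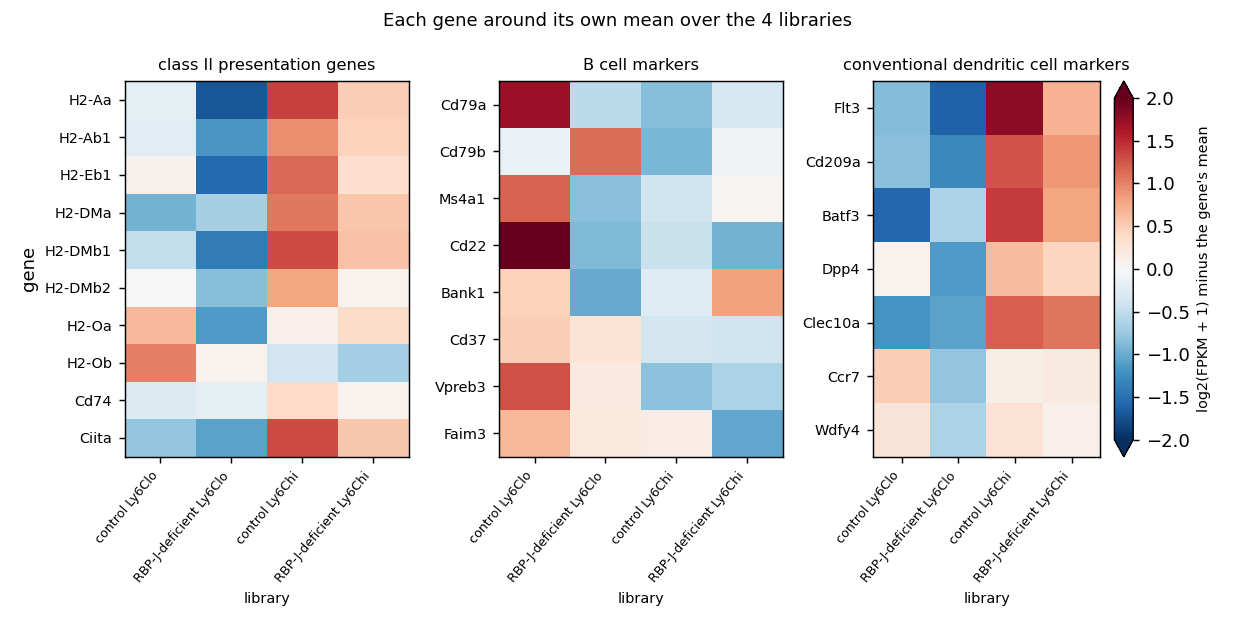
Log2(FPKM + 1) of each gene minus its mean over the 4 libraries (colour, with values past 2 or -2 shown at the end of the scale) for the 10 class II genes and for the B cell and conventional dendritic cell markers with an FPKM of at least 1. H2-Oa and H2-Ob are highest in control Ly6Clo monocytes, as are Cd79a, Ms4a1, Cd22, Vpreb3, Faim3 and Cd37. Cd79b is highest in RBP-J-deficient Ly6Clo and Bank1 in RBP-J-deficient Ly6Chi monocytes. H2-Aa, Flt3, Cd209a, Dpp4 and Wdfy4 are highest in control Ly6Chi and lowest in RBP-J-deficient Ly6Clo monocytes. Batf3 and Clec10a are lowest in control Ly6Clo monocytes.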

How the data were processed

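RNA-seq was available for isolated blood monocytes in 4 groups of 1 library each, taken from the sample labels. The authors deposited FPKM values for 6 pairs of libraries in a table with the layout of Cuffdiff. The submitters' processing notes name CASAVA 1.8, TopHat2 2.1.0, Cufflinks 2.2.1 and mm10, without their roles, and whether counting used strand is not given in the sources used here. The authors' fold changes, test statistics, p-values, q-values and calls in the table were not used. Values of a library agreed between pairs except for 19 values, none of them of the 10 genes. From the FPKM, log2 ratios of (FPKM + 1) were computed, genes whose FPKM reached 1 in any library formed the background, and "2-fold" is on that scale. With 1 library per group, no count or replicate test was possible. Depth is unknown, so no interval is given.

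The 10 genes and all lists were chosen with earlier results of these data known. Genes named were the 10, genes of the accompanying lists with an FPKM of at least 1, starting with the most abundant, and the 10 nearest to the mean centred profile of 4 of them. Genes that stayed below that level were named as markers or partners, and these were chosen after their values were seen. Coordinates are 1-based, from the GENCODE annotation of GRCm38, and promoter windows are from RefSeq on GRCm38.p6. Python 3.11.15, numpy 2.4.6, pandas 2.3.3, statsmodels 0.14.6 and biopython 1.88 were used, and the procedures were tested on simulated data. The alternatives were a pseudocount of 0.1 or 5, other filters on low values, thresholds of 1.5-fold and of 5.7 and 0.2, TPM, centring on the median ratio and subtraction of the trend with GC content.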

Additional observations from a re-analysis of the deposited data

Results flagged for a closer look

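For 3 of the 10 genes the genotype difference had opposite signs in the subsets. H2-DMa had a log2 ratio, RBP-J-deficient over control, of 0.27 in Ly6Clo and -0.50 in Ly6Chi monocytes. Cd74 had 0.10 and -0.32. H2-Oa had -1.78 and 0.27, and its difference between the subsets, Ly6Clo over Ly6Chi, also had opposite signs, at 0.54 in control mice and -1.51 in RBP-J-deficient ones. These differences were not tested, since each group is 1 library. The signs of H2-DMa and Cd74 in Ly6Clo monocytes turn after rescaling to TPM, and that of Cd74 also after centring on the median ratio, while those of H2-Oa held under all the alternatives run. The FPKM of H2-Oa was at most 2.78 in any library.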

How the results depend on the processing

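No paired analysis was possible because each group holds 1 library, and no replicate could be left out. The number of genes at least 2-fold lower in RBP-J-deficient Ly6Clo monocytes, 3 as reported, was 7 after rescaling to TPM (17.7% of all genes), 7 after TPM without failed estimates (19.1%, an alternative chosen after seeing the data), 6 after centring (13.8%), 5 with a pseudocount of 0.1 (17.1%), 7 at a threshold of 1.5-fold (22%) and 0 at the thresholds of 5.7 and 0.2 (0.674%). It was 4 after the GC trend was subtracted (9.79%), and 2 with a pseudocount of 5 (4.47%), among genes whose FPKM reached 1 in every library (10.4%) and among those with a mean FPKM of at least 10 (10.8%). In Ly6Chi monocytes it was 0, and 5 at 1.5-fold (14.3% of all genes) or 1 after TPM without failed estimates (7.74%). Between the subsets, the 6 genes lower in control mice and the 7 lower in RBP-J-deficient ones became 0 and 0 at 5.7 and 0.2. Of all genes 1.26% and 0.82% were lower at these thresholds. The count of 1 gene higher in control mice, H2-Ob, became 0 at those thresholds (0.752% of all genes) and with a pseudocount of 5 (2.36%). That count was also 0 among genes whose FPKM reached 1 in all 4 libraries (4.45%). It was 0 too among those with a mean FPKM of at least 10 (5.4%, chosen after seeing the data). None was higher in RBP-J-deficient mice, but 1 was at 1.5-fold (20.7% of all genes) or with 0.1 added (12.2%). The median log2 ratio in Ly6Clo monocytes, -0.91, was -1.21 under TPM, -1.27 under TPM without failed estimates, -1.04 after centring and -1.01 with a pseudocount of 0.1, but -0.62 with a pseudocount of 5 and -0.71 after the GC trend was subtracted. When 5 was added, the medians between the subsets were -0.95 in control mice and -0.94 in RBP-J-deficient ones. The thresholds, scalings and constants act by construction.

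Of 40 ratios (10 genes, 4 comparisons), 33 were unchanged under TPM and 36 after centring. When 0.1 was added 32 were unchanged, when 5 was added 35, and after the GC trend was subtracted 37. Unchanged ratios kept their sign and side of the 2-fold line and moved by less than 1.5-fold. The log2 ratio correlated with transcript GC content across 6086 genes (Spearman's rho -0.37 in Ly6Clo and -0.30 in Ly6Chi monocytes between the genotypes), where genes are not independent replicates. The 10 genes had a median GC of 54.5%, against 49.3%. After subtraction the Ly6Clo ratios were -1.54 for H2-Aa, -1.60 for H2-Eb1, -0.52 for H2-Ab1, -1.44 for H2-Oa and 0.47 for Cd74, and Cd74 turned to 0.09 between the subsets of RBP-J-deficient mice. The part of GC content in the reported ratios was not tested beyond this. Depth was unknown, so the precision of H2-Oa, H2-Ob and Ciita at a few FPKM or less could not be given.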
